A study of Sus scrofa with 46 samples.

Results

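The livers compared here are the 12 with the highest and the 12 with the lowest RNA level of 3 DNA replication genes among 43 livers of newborn piglets. The score behind the ranking was the mean of log2(CPM + 1) of PCNA, TYMS and CDC6, where CPM is a gene's count per 1000000 counts of its library, and the livers were chosen by this score whatever their labelled group. The deposited table holds 46 livers, of which 43 were ranked, 12 were called high, 12 low and 19 lie in between. The other 3, of pigs 38, 39 and 46, were left out by the rule. Of the 18440 genes in the table, 13287 other than the 3 in the score passed the filter on low counts and were compared.

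The piglets were crossbred offspring of several sows, judged by eye at birth as intrauterine growth restricted (IUGR) or normal-sized, and either given an oral energy-rich supplement (treated) or not (untreated). All were reared indoors and killed 72 hours after birth, when a piece of liver was taken for RNA. By label the 43 ranked livers were of 11 IUGR treated, 9 IUGR untreated, 12 normal-sized treated and 11 normal-sized untreated piglets. Litter, sex and week of sampling are not in the labels, so littermates could not be identified and each piglet was taken as a sample of its own.

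Before a cell copies its DNA, the origin recognition complex, CDC6 and CDT1 load the MCM helicase onto chromatin, and kinases with CDC45 and the GINS complex then start it. At the fork, PCNA is the sliding clamp that holds the polymerases on DNA, and TYMS, thymidylate synthase, makes the thymidine nucleotide they need. Most of these genes are switched on by E2F transcription factors as a cell passes from G1 into S phase. The newborn liver is still growing, and its hepatocytes as well as the blood-forming cells that remain in it from fetal life can divide. RNA levels were measured and DNA synthesis was not, so high and low refer to RNA of replication genes.

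The score of the high livers ran from 4.73 to 6.37 (median 5.48) and that of the low livers from 3.77 to 4.34 (median 4.22). PCNA had 32.0, 52.9 and 94.8 CPM (lowest, median and highest) in the high livers, against 19.9, 26.6 and 30.6 CPM in the low livers. TYMS had 50.4, 72.4 and 146 CPM in the high livers, against 19.001, 26.9 and 37.4 CPM in the low livers. CDC6, the loader of the MCM helicase, had 8.51, 18.3 and 38.8 CPM in the high livers, against 4.81, 6.61 and 8.52 CPM in the low livers. These values selected the livers and are given as a description. The scores form a continuum at both borders, since the last liver taken as high had 4.726 and the next one below it 4.715, and the first above the low livers had 4.360 and the uppermost low liver 4.342. The spread was wider among the high livers, where pigs 34, 30 and 20 stood at 6.37, 5.97 and 5.96.

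**Figure D1:**
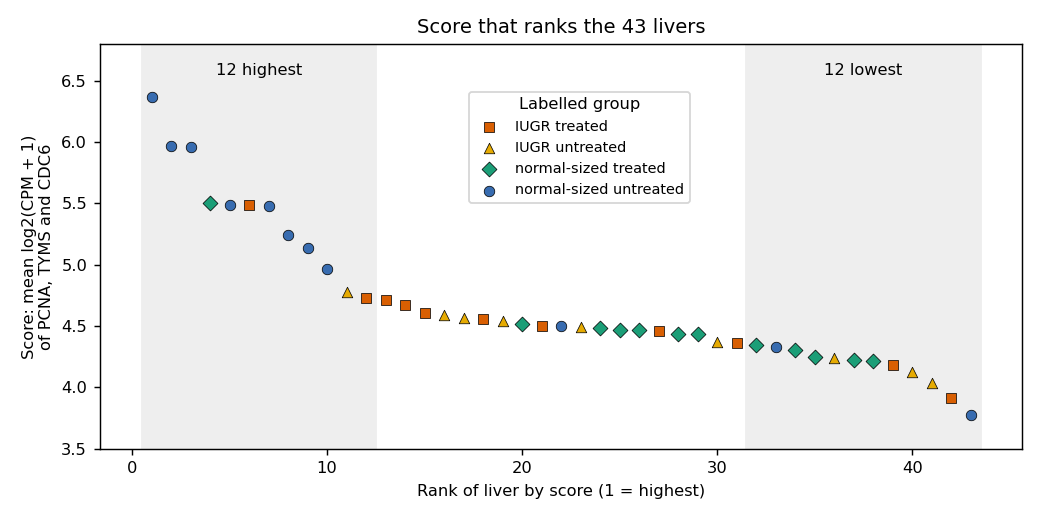
The 43 ranked livers by rank (x axis, 1 is the highest) and score (y axis, mean log2(CPM + 1) of PCNA, TYMS and CDC6), with marker and colour for the labelled group. The shaded areas hold the 12 highest livers, with scores from 4.73 to 6.37, and the 12 lowest, from 3.77 to 4.34. Most points in the upper area are normal-sized untreated piglets.

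The labels were not spread evenly over the ranking. Of the 11 normal-sized untreated piglets 8 were among the high livers, 1 in between and 2 among the low ones. The other high livers were those of 2 of 11 IUGR treated, 1 of 9 IUGR untreated and 1 of 12 normal-sized treated piglets, and these groups had 2, 3 and 5 low livers. The median score was 4.56 in IUGR treated, 4.49 in IUGR untreated, 4.44 in normal-sized treated and 5.24 in normal-sized untreated piglets. These counts are a description, because the choice of livers was made with group results of these data known, and whether each column heading stands over the right piglet's counts was not tested here. A fit with the labelled group as a covariate and a fit without the normal-sized untreated livers are therefore given beside the main comparison.

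Depth was close to equal. The total count was 15138122 to 17045076 in the high livers and 15176496 to 17963109 in the low livers, with 15729 to 16008 genes detected in the high livers and 15921 to 16106 in the low livers. The 10 most abundant genes took 24.5 to 29.0% of the counts in the high livers and 23.7 to 30.1% in the low livers. Albumin (ALB), the defining product of hepatocytes, had a median of 89180 CPM in the high livers and 115800 CPM in the low livers. The 3 livers left out scored 3.54 to 3.78 and had PCNA at 10.3 to 12.7 CPM, so they would have stood at the low end. By label pig 38 was IUGR untreated, and pigs 39 and 46 were IUGR treated. The counts by label above therefore lack 3 low-scoring IUGR livers.

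Across all other genes, 1006 of 13287 (7.57%) were higher and 435 (3.27%) lower in the high livers at an adjusted p under 0.05 (edgeR's quasi-likelihood test with Benjamini-Hochberg adjustment, 12 against 12 livers). The median log2 fold change, high over low livers, was -0.03 over all tested genes. In 18 genes (0.135%) every high liver lay above every low liver, and in 0 genes (0%) every high liver lay below every low liver. The lists of origin licensing and firing, the replication fork and DNA repair held 7, 5 and 1 of the 18. PCLAF, which binds PCNA, NAA40, ZNF367 and PSMC3IP were among the 18 and belong to no pathway or marker list. Because the livers were taken from the ends of a ranking, these p-values say how closely a gene went with the score in the chosen livers and are no test of growth restriction or of the supplement. In this bulk tissue, more cells in S phase and more RNA per such cell cannot be told apart.

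The genes that load and start the replicative helicase were nearly all higher in the high livers. Of the 27 tested genes of origin licensing and firing, 25 were higher and 0 lower, with a median log2 fold change of 0.99. MCM4, a subunit of the MCM2-7 helicase, had 47.3, 76.9 and 134 CPM (lowest, median and highest) in the high livers, against 27.8, 32.9 and 39.2 CPM in the low livers. MCM4 had the smallest p of all genes, and the livers did not overlap. Its log2 fold change was 1.36, with a standard error (SE) of 0.15 and an adjusted p of 1.1e-05. MCM2, on chromosome 13 of Sscrofa11.1 from 72630378 to 72651270, had 25.6, 47.5 and 83.6 CPM in the high livers, against 16.2, 18.7 and 24.3 CPM in the low livers. Its log2 fold change was 1.41 (SE 0.16), again with no overlap. The other helicase subunits had log2 fold changes of 1.38 for MCM3, 1.20 for MCM5, 1.30 for MCM6 and 1.02 for MCM7, and in all 6 subunits every high liver was above every low one.

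GINS1, a subunit of the GINS complex that completes the active helicase, had 8.82, 13.8 and 21.7 CPM in the high livers, against 3.10, 5.76 and 6.86 CPM in the low livers, a log2 fold change of 1.36 (SE 0.16) with no overlap. CDC45, which joins the helicase together with GINS, had a log2 fold change of 1.23 (SE 0.17), and 11 of the 12 high livers were above all low livers. CDT1, the partner of CDC6 in loading, had 8.26, 12.5 and 24.8 CPM in the high livers and 4.39, 5.50 and 9.14 CPM in the low livers. Its log2 fold change was 1.27 (SE 0.17), and its inhibitor geminin (GMNN) was higher by less, 0.35 (SE 0.08, adjusted p = 0.0052). TOPBP1, which helps to recruit CDC45, and the kinase pair CDC7 and DBF4, which fires origins, had log2 fold changes of 1.19, 0.52 and 0.53. Within the origin recognition complex the subunits differed. ORC1 (log2 fold change 1.08) and ORC6 (0.94) were higher, while ORC2 had 11.0, 15.6 and 20.3 CPM in the high livers, against 10.6, 14.7 and 17.8 CPM in the low livers (log2 fold change 0.11, adjusted p = 0.48). ORC4 had a log2 fold change of -0.10 (adjusted p = 0.36), so these 2 did not pass the test.

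**Figure D2:**
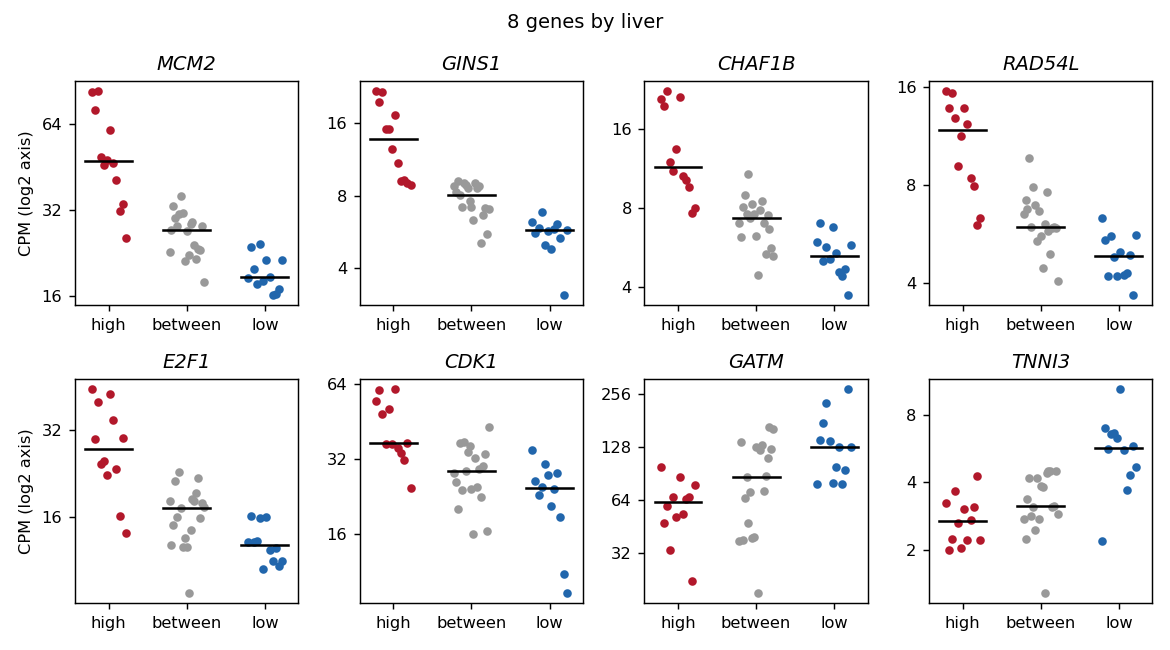
CPM of 8 genes in each liver (y axes, log2 scale) for the high livers, the livers in between and the low livers (x axes), with the median as a black line. MCM2, GINS1 and CHAF1B separate all 12 high from all 12 low livers, CDK1 overlaps, and GATM and TNNI3 are lower in the high livers.

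At the replication fork, 31 of 36 tested genes were higher and 0 lower, with a median log2 fold change of 0.86. RFC3, a subunit of the clamp loader that places PCNA on DNA, had 8.94, 13.5 and 23.9 CPM in the high livers, against 4.40, 5.79 and 8.90 CPM in the low livers. Its log2 fold change was 1.30 (SE 0.16, adjusted p = 1.9e-05), and the lowest high liver was just above the uppermost low liver. CHAF1A and CHAF1B, subunits of the histone chaperone that packs new DNA into nucleosomes, had log2 fold changes of 1.14 (SE 0.14) and 1.37 (SE 0.17) with no overlap. CHAF1B had 7.64, 11.5 and 22.3 CPM in the high livers and 3.73, 5.26 and 7.02 CPM in the low livers. The leading-strand polymerase subunits POLE (log2 fold change 1.20) and POLE2 (1.23), the lagging-strand polymerase POLD1 (0.98), the primase PRIM1 (1.10), and LIG1 (0.84) and FEN1 (0.92), which join and trim Okazaki fragments, were all higher. POLE2 and LIG1 also showed no overlap. The 5 that did not pass were POLD4, RFC1, RNASEH2A, ASF1A and TOP2A. RFC1, the large clamp loader subunit, had 40.8, 60.7 and 86.0 CPM in the high livers and 44.3, 52.2 and 61.3 CPM in the low livers (log2 fold change 0.19, adjusted p = 0.18). TOP2A, the topoisomerase that peaks in G2 and mitosis, had a log2 fold change of 0.45 (SE 0.18, adjusted p = 0.10).

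Of 29 tested genes of nucleotide supply, 17 (58.6%) were higher and 0 lower, where 7.57% of all tested genes were higher. The median log2 fold change was 0.43. RRM2, the S-phase subunit of ribonucleotide reductase, had 114, 190 and 319 CPM in the high livers, against 47.8, 105 and 142 CPM in the low livers, a log2 fold change of 1.03 (SE 0.17, adjusted p = 0.00034). RRM1, its constant partner, differed by 0.46, and the damage-inducible subunit RRM2B by -0.05 (adjusted p = 0.76). The salvage kinases DCK (log2 fold change 0.88) and TK1 (0.81) were higher. PFAS (0.83) and GMPS (0.46) of purine synthesis and UNG (0.87), which removes uracil from DNA, were higher as well. GART, another purine enzyme, had 136, 183 and 258 CPM in the high livers and 110, 169 and 321 CPM in the low livers (log2 fold change 0.02, adjusted p = 0.94).

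Among 30 tested genes of G1/S control, 20 were higher and 1 lower, with a median log2 fold change of 0.64. E2F1, an activator of replication genes, had 14.1, 27.4 and 44.4 CPM in the high livers, against 10.6, 12.8 and 16.2 CPM in the low livers. The log2 fold change of E2F1 was 1.15 (SE 0.15, adjusted p = 4.0e-05), and 11 of the 12 high livers were above all low livers. UHRF1 (1.12) and DNMT1 (0.73), which copy DNA methylation to the new strand, the chromatin remodeller HELLS (1.19) and the transcription factor MYBL2 (1.00) were higher. So were the cyclins and kinase of S-phase entry, CCNE1 (0.83), CCNE2 (0.95) and CDK2 (0.66), and the repressor E2F8 (0.84). Of the members that did not pass, CCND1, cyclin D1, had 42.7, 58.8 and 115 CPM in the high livers, against 45.4, 51.7 and 84.0 CPM in the low livers (log2 fold change 0.23, SE 0.15, adjusted p = 0.33). MYC had 9.65, 16.1 and 40.5 CPM in the high livers, against 9.75, 17.3 and 49.7 CPM in the low livers (log2 fold change -0.03, SE 0.30, adjusted p = 0.96). The lower gene was RBL2, which encodes p130, the pocket protein that holds E2F targets silent in resting cells. RBL2 had 37.6, 52.4 and 78.5 CPM in the high livers and 47.4, 81.5 and 97.4 CPM in the low livers (log2 fold change -0.47, SE 0.13, adjusted p = 0.019), whereas RBL1, encoding the related p107, was higher by 0.78. The call of RBL2 did not hold with the labelled group (adjusted p = 0.16) or the erythroid score (0.11) as a covariate.

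Genes of mitosis had a smaller median log2 fold change than origin licensing and fork genes, and none separated all high from all low livers. Of 57 tested, 29 (50.9%) were higher and 0 lower, where 7.57% of all tested genes were higher. The log2 fold change was above 0 in all 57, and the median was 0.51. CENPK, a centromere protein, had 3.72, 9.43 and 12.5 CPM in the high livers, against 1.96, 3.60 and 5.99 CPM in the low livers (log2 fold change 1.14, SE 0.20, adjusted p = 0.00046). SMC2 of condensin (0.86), the spindle checkpoint gene MAD2L1 (0.89) and SPC25 of the kinetochore (0.88) followed. CDK1, the mitotic kinase, had 24.6, 37.04 and 61.4 CPM in the high livers and 9.26, 24.5 and 34.7 CPM in the low livers, a log2 fold change of 0.87 (SE 0.18, adjusted p = 0.0023), with 9 high livers above all low livers. MKI67, the usual marker of dividing cells, had 110, 191 and 254 CPM in the high livers, against 53.3, 147 and 200 CPM in the low livers. Its log2 fold change was 0.41 (SE 0.17, adjusted p = 0.12). The late mitotic genes CCNB1 (0.41, adjusted p = 0.28), PLK1 (0.42, adjusted p = 0.18), CDC20 (0.34, adjusted p = 0.38) and ASPM (0.07, adjusted p = 0.88) did not pass either, and their values overlapped widely. Of the 57, 47 had an unadjusted p under 0.05 by edgeR's test, and DESeq2 called 37 and limma voom 40 higher. With the labelled group as a covariate 10 of the 57 passed and with the erythroid score described below 3 passed, while the medians were 0.63 and 0.37.

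**Figure D3:**
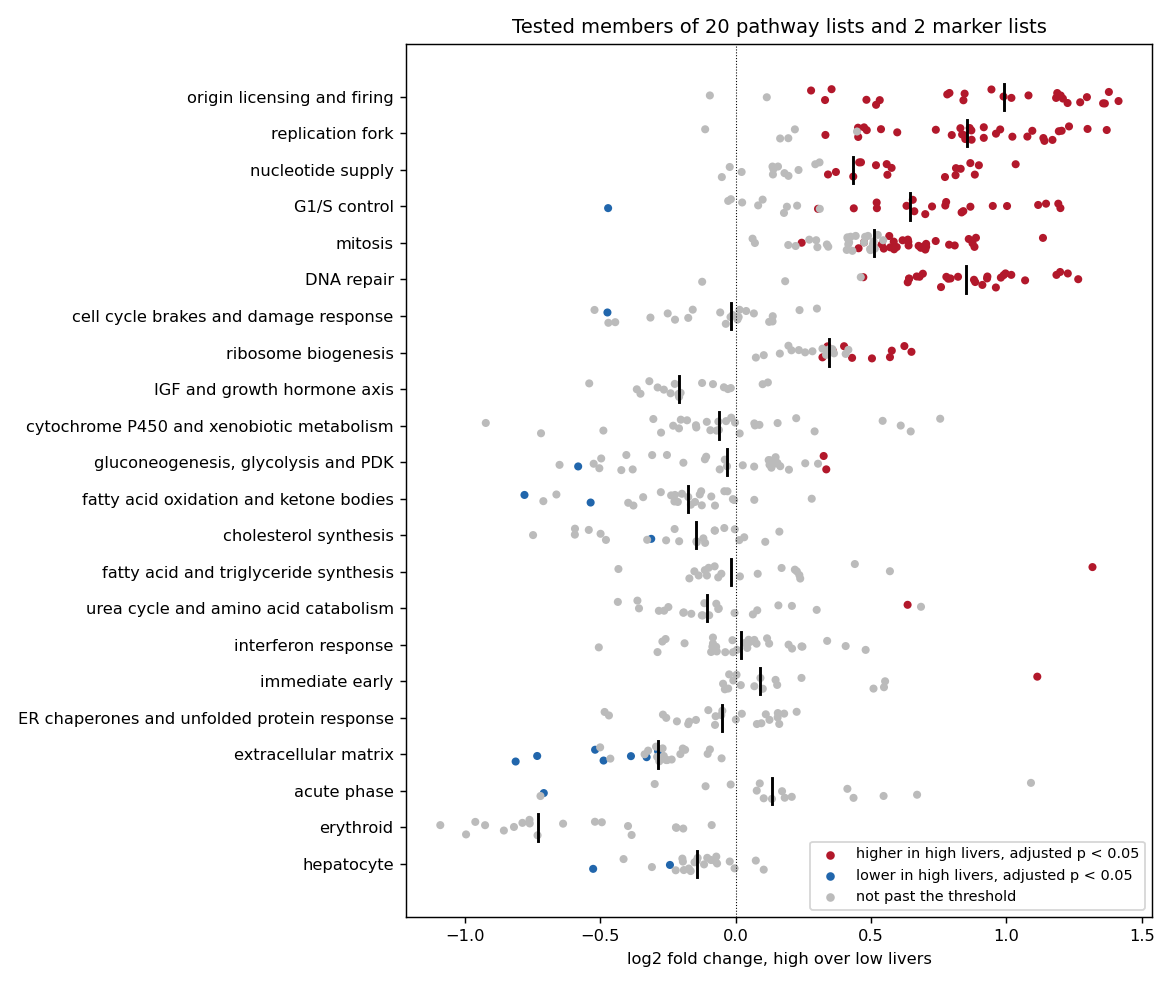
Log2 fold change, high over low livers (x axis), of each tested member of 20 pathway lists and of the erythroid and hepatocyte marker lists (rows), with the median of each list as a black bar. Red and blue points passed the adjusted p of 0.05 as higher and lower in the high livers, and grey points did not. Origin, fork and repair genes lie furthest to the right, with medians of 0.99, 0.86 and 0.85.

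Of 30 tested DNA repair genes, 27 were higher and 0 lower, with a median log2 fold change of 0.85. RAD54L, a motor protein of homologous recombination, had 6.02, 11.8 and 15.5 CPM in the high livers, against 3.67, 4.84 and 6.33 CPM in the low livers. RAD54L differed by 1.19 on the log2 scale (SE 0.15), and 10 of the 12 high livers were above all low livers. EXO1, an exonuclease of mismatch repair and recombination, had 6.39, 10.4 and 17.5 CPM in the high livers, against 2.41, 5.29 and 6.08 CPM in the low livers, and did not overlap (log2 fold change 1.26, SE 0.18). RMI2 (0.91) and BLM (1.07), which dissolve recombination intermediates, BRCA1 (0.96) and the checkpoint kinase CHEK1 (0.93) were higher. The kinases that sense damage were not among them, since ATM differed by -0.12 (adjusted p = 0.57) and ATR by 0.18 (adjusted p = 0.22). PSMC3IP, a cofactor of strand exchange outside the list, had the largest log2 fold change among the 15 higher genes of smallest p, 1.49 (SE 0.19), with 4.46, 8.72 and 15.6 CPM in the high livers, against 2.12, 3.21 and 4.40 CPM in the low livers and no overlap. NUP155 (0.78) of the nuclear pore and HAT1 (0.91), the acetyltransferase of new histone H4, completed those 15.

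Of 23 tested brakes of the cell cycle and genes of the damage response, 0 were higher and 1 (4.35%) lower, with a median log2 fold change of -0.02. Of all tested genes 3.27% were lower. GADD45A, a stress-induced growth arrest gene, had 11.0, 14.6 and 22.7 CPM in the high livers, against 16.3, 20.4 and 29.2 CPM in the low livers (log2 fold change -0.47, SE 0.11, adjusted p = 0.0062, and 0.055 with the erythroid score as a covariate). CDKN1A, the p21 inhibitor, had 16.7, 27.97 and 41.4 CPM in the high livers and 11.0, 31.9 and 65.2 CPM in the low livers (adjusted p = 0.47). Of all tested genes 7.57% were higher. Of 25 tested genes of ribosome biogenesis, 10 (40%) were higher and 0 lower, with a median of 0.34. Among them were NCL, nucleolin (0.57), GAR1 of the snoRNP that modifies ribosomal RNA (0.65), NPM1 (0.43) and NOP58 (0.58). Of the 25, 3 passed as higher with the labelled group as a covariate, 6 with the erythroid score and 0 without the normal-sized untreated livers, and NOP58 did not pass in either covariate fit (adjusted p = 0.11 and 0.060). NCL had 210, 292 and 432 CPM in the high livers and 162, 200 and 218 CPM in the low livers.

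The lower genes of smallest p were mixed in kind. The largest log2 fold change among the 15 of smallest p was that of GATM, on which creatine synthesis depends, with 22.2, 62.0 and 98.3 CPM in the high livers, against 79.0, 128 and 272 CPM in the low livers. Its log2 fold change was -1.17 (SE 0.23, adjusted p = 0.0014), and 10 of the 12 high livers were below all low livers. PHYHD1, a dioxygenase related to the enzyme of phytanic acid oxidation, had the smallest p, with 13.5, 26.0 and 32.5 CPM in the high livers and 32.4, 41.9 and 54.1 CPM in the low livers (log2 fold change -0.68, SE 0.12, adjusted p = 0.00041). TNNI3, known as the cardiac troponin I, was low throughout, with 1.99, 2.68 and 4.28 CPM in the high livers, against 2.18, 5.72 and 10.5 CPM in the low livers (log2 fold change -1.04). HSD17B2, which inactivates sex steroids, had 61.0, 117 and 195 CPM in the high livers, against 143, 205 and 418 CPM in the low livers (log2 fold change -0.89). ORAI3 of the store-operated calcium channels (-0.57), IFT57 of cilium transport (-0.58), the cadherin CDHR5 (-1.04), SCNN1D, a subunit of the epithelial sodium channel (-0.91), and MEF2B (-1.02), ECM2 (-0.65), ST7L (-0.43), LHFPL6 (-0.47), C7H14orf93 (-0.64), LOC110257410 (-0.73) and LOC100738859 (-0.90) made up the rest. All 15 passed with the erythroid score as a covariate, and all but SCNN1D (adjusted p = 0.059) with the labelled group. None of the 15 passed without the normal-sized untreated livers.

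In gluconeogenesis and glycolysis, 2 of 31 tested genes (6.45%) were higher and 1 (3.23%) lower, shares close to the 7.57% and 3.27% of all tested genes, with a median log2 fold change of -0.03. PC, pyruvate carboxylase, which opens gluconeogenesis, had 160, 277 and 424 CPM in the high livers, against 307, 385 and 665 CPM in the low livers, with 9 high livers below all low livers (log2 fold change -0.58, SE 0.14, adjusted p = 0.0095). The glycolytic PGK1 and PGAM1 were each higher by 0.33 (adjusted p = 0.0093 and 0.032), the call of PGAM1 being lost in 8 of the 24 fits that left out a library, with an adjusted p of up to 0.057. FBP1 (-0.52, adjusted p = 0.051) and PCK1 (-0.65, adjusted p = 0.087), further gluconeogenic enzymes, did not pass, although FBP1 did with the labelled group as a covariate (-0.78, adjusted p = 0.031). Of 27 genes of fatty acid oxidation and ketone bodies, 0 were higher and 2 (7.41%) lower, where 3.27% of all tested genes were lower. The log2 fold change was below 0 in 25 of the 27, with a median of -0.18. With the 3 livers left out by the rule put back into the ranking, 4 were lower (median -0.29). BDH1, which makes beta-hydroxybutyrate, had 122, 198 and 313 CPM in the high livers, against 245, 277 and 352 CPM in the low livers (log2 fold change -0.54, SE 0.12, adjusted p = 0.0045). PPARA, the receptor that drives the pathway in fasting, had a log2 fold change of -0.78 at an adjusted p of 0.0496, which was lost in 17 of those 24 fits (up to 0.096). With the labelled group as a covariate PC (adjusted p = 0.027) and BDH1 (0.037) passed and the other called genes of both lists did not, and with the erythroid score BDH1 alone passed (0.042).

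SCD, the stearoyl-CoA desaturase, was the 1 higher gene of 20 in fatty acid and triglyceride synthesis, with 86.7, 275 and 676 CPM in the high livers, against 37.9, 140 and 197 CPM in the low livers (log2 fold change 1.32, SE 0.35, adjusted p = 0.016). The median of that list was -0.02. In cholesterol synthesis 1 of 23 genes was lower and 0 higher, with a median of -0.15. Of 24 genes of the urea cycle and amino acid catabolism, 1 was higher, GLUL, glutamine synthetase (0.64, adjusted p = 0.048), a call lost in 16 of the 24 fits that left out a library (up to 0.091), and 0 were lower. EGR1 was the 1 higher of 17 immediate early genes (1.11, adjusted p = 0.034, lost in 10 of the 24 fits, up to 0.059) and 0 were lower. With the 3 livers left out by the rule put back into the ranking, EGR1 had the opposite sign, -0.28 (adjusted p = 0.72), and against the score over all 43 ranked livers its slope was 0.45 on the log2 scale per unit of score (adjusted p = 0.42). SERPINA1, alpha-1 antitrypsin (-0.71, adjusted p = 0.013), was the 1 lower of 17 acute phase genes, with 0 higher. SCD, GLUL and EGR1 made up 5, 4.17 and 5.88% of their lists, where 7.57% of all tested genes were higher. The lower genes of cholesterol synthesis and acute phase made up 4.35 and 5.88%, where 3.27% of all tested genes were lower. Of SCD, GLUL, EGR1 and SERPINA1, EGR1 alone passed with the labelled group as a covariate (adjusted p = 0.044) and none with the erythroid score. In the lists of the IGF and growth hormone axis (19 tested), cytochrome P450 and xenobiotic metabolism (30), interferon response (30) and ER chaperones (24), 0 genes passed edgeR's test in either direction, with medians of -0.21, -0.06, 0.02 and -0.05. At an unadjusted p under 0.05 they had 1, 4, 1 and 0 genes. DESeq2 called 1 ER chaperone gene lower, limma voom called 1 gene of the IGF axis lower, and neither called any other gene of the 4 lists. In the IGF axis list the log2 fold change was below 0 in 17 of 19 genes. With the 3 livers left out by the rule put back, 3 of its genes were lower (median -0.37), and 0 genes of the other 3 lists passed. With the score as a slope over all 43 ranked livers, edgeR's test had STAT5B (adjusted p = 0.0090) and STAT5A (0.023) lower and CYP2D25 (0.0096) higher.

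Single genes of growth and metabolism were examined by name. IGF1, the growth factor, had 3.29, 7.83 and 26.2 CPM in the high livers, against 3.90, 11.14 and 29.9 CPM in the low livers (log2 fold change -0.35, SE 0.34, adjusted p = 0.54). IGF2, its fetal relative, had 2713, 4810 and 7727 CPM in the high livers and 4046, 5620 and 8912 CPM in the low livers (-0.24, adjusted p = 0.27). The ranges of the high and the low livers overlapped for both genes. PDK4, which restrains glucose oxidation, differed by -0.50 (SE 0.39, adjusted p = 0.44), CYP2C49 by -0.11 (adjusted p = 0.88), ADH4 by -0.92 (SE 0.56, adjusted p = 0.30) and RTP3 by 0.25 (adjusted p = 0.64). CD207 was too low to be tested.

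Of 25 tested extracellular matrix genes, 0 were higher and 7 (28%) lower, where 3.27% of all tested genes were lower. The log2 fold change was below 0 in all 25, and the median was -0.29. COL5A2, a fibrillar collagen chain, had 44.5, 65.1 and 81.7 CPM in the high livers, against 70.2, 82.8 and 99.1 CPM in the low livers, with 9 high livers below all low livers (log2 fold change -0.39, SE 0.09, adjusted p = 0.0066). The proteoglycan DCN (-0.73), SPARC (-0.29), elastin (ELN, -0.52), LOX (-0.81), which crosslinks collagen and elastin, COL3A1 (-0.49) and COL4A1 (-0.33) were the others. The calls of LOX, COL4A1 and COL3A1 were lost in 17, 15 and 9 of the 24 fits that left out a library, with adjusted p up to 0.091, 0.086 and 0.064. With the labelled group as a covariate 1 of the 25 passed, and with the erythroid score 0 passed, while the medians were -0.26 and -0.23 and the log2 fold changes of DCN -0.80 and -0.67.

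Markers of other cells in the tissue were set beside these results. Of 19 tested erythroid markers 0 passed in either direction, but the log2 fold change was below 0 in all 19, with a median of -0.73, and the smallest adjusted p was 0.074 (ANK1). Of the 19, 11 had an unadjusted p under 0.05, and DESeq2 called 1 lower and limma voom 10. Their summed level was 277 to 2388 CPM (median 728) in the high livers and 697 to 1782 CPM (median 1209) in the low livers. HBB, beta globin, had 135, 515 and 2045 CPM in the high livers and 373, 840 and 1455 CPM in the low livers, and the highest value belonged to the high liver of pig 61. KLF1, a defining erythroid factor, was at 0 in the lowest high liver, with a median of 1.28 CPM in the high livers and 2.51 CPM in the low livers. With the mean log2(CPM + 1) of the erythroid markers as a covariate, 321 genes (2.42%) were higher and 50 (0.376%) lower, and 321 and 48 of these were among the 1006 and 435 above. Origin licensing kept 19 of its 25 calls, the fork 29 of 31 and repair 19 of 27.

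**Figure D4:**
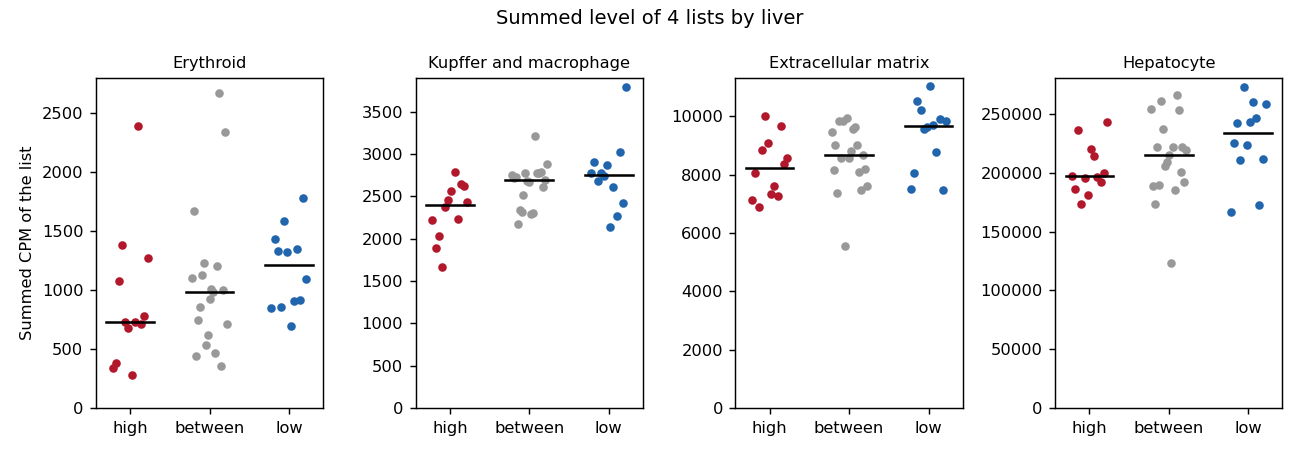
Summed CPM (y axes, from 0) of the erythroid, Kupffer cell and macrophage, extracellular matrix and hepatocyte lists in each liver, for the high livers, the livers in between and the low livers, with medians as black lines. The erythroid sums have medians of 728 CPM in the high livers and 1209 CPM in the low livers, and the ranges overlap in all 4 lists.

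Other markers overlapped between the sides, and their lists too had median log2 fold changes below 0. The log2 fold change was below 0 in 21 of 23 hepatocyte, 16 of 17 Kupffer cell and macrophage and 14 of 17 neutrophil markers. The 23 hepatocyte entries come from 22 listed symbols, since TF stands for more than 1 gene and each entry was counted. It was below 0 in 9 of 14 stellate and 8 of 13 fetal liver markers. Of the hepatocyte markers 7 had an unadjusted p under 0.05 by edgeR's test. Hepatocyte markers summed to 173600 to 243400 CPM (median 197200) in the high livers and 166600 to 272800 CPM (median 233900) in the low livers, and 2 of 23, FOXA2 (-0.53) and NR1H4 (-0.24), were lower. Both are regulators of hepatocyte genes. Kupffer cell and macrophage markers summed to 1663 to 2784 CPM (median 2399) in the high livers and 2135 to 3787 CPM (median 2758) in the low livers, with 0 of 17 passing and 5 at an unadjusted p under 0.05. The median log2 fold change of the list was -0.24. Blood stem and progenitor markers had 1 of 11 lower (SPN, -0.94, adjusted p = 0.0041), with sums of 49.3 to 77.8 CPM in the high livers and 59.1 to 99.0 CPM in the low livers. Megakaryocyte markers had 1 of 7 lower (GP9, -0.49), stellate markers 1 of 14 (COLEC11, -0.32) and cholangiocyte markers 2 of 10 (among them AQP1, -0.49). The lower shares were 8.70% of hepatocyte, 9.09% of progenitor, 14.3% of megakaryocyte, 7.14% of stellate and 20% of cholangiocyte markers. Of all tested genes 3.27% were lower, and in lists this short each share rests on 1 or 2 genes. The lists for neutrophils (17 tested), B cells (4), T and NK cells (5), dendritic cells (5), endothelium (16) and fetal liver (13) had 0 genes passing, with medians of -0.29, -0.31, -0.36, -0.37, -0.09 and -0.14. They had 1, 0, 1, 0, 1 and 3 genes at an unadjusted p under 0.05, and of these and the Kupffer markers DESeq2 called none and limma voom 2 fetal liver genes lower. None of the 13 marker lists had a higher member by edgeR's test, and the 6 lower markers named here did not pass with the labelled group or with the erythroid score as a covariate. The calls of NR1H4, COLEC11, AQP1 and FOXA2 were also lost in 15, 15, 13 and 6 of the 24 fits that left out a library. The part of cell composition in the replication genes was not tested beyond the erythroid fit.

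The association was also fitted with the labels taken into account. With the labelled group as a covariate, 339 genes (2.55%) were higher and 101 (0.76%) lower, of which 334 and 73 were among the 1006 and 435. Origin licensing then had 21 higher genes, the fork 27, repair 24, G1/S control 17 and nucleotide supply 10. MCM4 had a log2 fold change of 1.19 (adjusted p = 0.0016). Without the normal-sized untreated livers, a fit added after the data were seen, 4 high and 10 low livers were left, and 34 genes (0.256%) were higher and 1 (0.00753%) lower. Of these 34, 33 were among the 1006. The 6 MCM helicase subunits, GINS1, CDT1, TOPBP1, CHAF1A, CHAF1B, RFC3 and E2F1 were higher there, MCM4 by 1.03 on the log2 scale (adjusted p = 0.0053). These livers are part of the same 24 and were split by the same score. The MCM subunits, GINS1, CHAF1A, CHAF1B and RFC3 had no overlap among the 24, so their direction in this fit was fixed. No mitosis or repair gene of the lists passed in it, where the medians of those lists were 0.25 and 0.55.

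By label, MCM4 had 47.3 and 82.8 CPM in the high IUGR treated livers, against 28.7 and 32.8 CPM in the low ones. It had 51.0 CPM in the high IUGR untreated liver, against 27.8 to 33.1 CPM in the low ones. In normal-sized treated piglets it had 80.6 CPM in the high liver, against 32.8 to 34.6 CPM in the low ones. In normal-sized untreated piglets it had 53.4 to 134 CPM (median 86.4) in the 8 high livers, against 30.8 and 39.2 CPM in the low ones. In MCM4 every high liver was above every low one, so the order within each label was fixed and is no separate check. GATM ran the other way, with 47.3 to 98.3 CPM in the 8 high normal-sized untreated livers, against 128 and 140 CPM in the low ones.

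The 19 livers in between were not used in the fit, although the same score placed them. For 964 of the 1006 higher genes (95.8%) and 398 of the 435 lower genes (91.5%), their median lay between the medians of the high and the low livers, as it did for 54.2% of all tested genes. The called genes were picked for a gap between the sides, which by itself raises their shares. How much of the difference from 54.2% comes from that choice was not tested. MCM2 had a median of 27.3 CPM in the livers in between and GINS1 8.06 CPM, both nearer to the low livers. With the 3 livers of pigs 38, 39 and 46 put back into the ranking, another fit added after the data were seen, they took 3 of the 12 low places. They displaced the livers of pigs 64, 14 and 68, all labelled normal-sized. In that fit 678 genes (5.1%) were higher and 887 (6.68%) lower, 551 and 266 of them among the 1006 and 435. Origin licensing had 19 higher, the fork 24, repair 25 and mitosis 28, and 0 lower in each. MCM5 (log2 fold change 0.63, adjusted p = 0.093), CDT1 (0.73, adjusted p = 0.077), LIG1 (0.41, adjusted p = 0.19), PFAS (0.51, adjusted p = 0.088), UHRF1 (0.71, adjusted p = 0.055) and MYBL2 (0.46, adjusted p = 0.24) did not pass in it. Among the 15 lower genes of smallest p, GATM (-0.85, adjusted p = 0.079) and ST7L (-0.18, adjusted p = 0.55) did not pass either. The same held for IFT57 (adjusted p = 0.28), LHFPL6 (0.098) and ECM2 (0.51), while the rest of the 15 passed.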

How the data were processed

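Liver RNA was sequenced by the authors as paired-end reads of 100 bp and mapped to Sscrofa11.1 with Bowtie2. The deposited values are estimated counts per gene, not scaled for depth or length, of which 85.9% are whole numbers. Which program made the counts is not stated in the sources used. The submitters' processing notes name DESeq2.

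Estimated counts were rounded to whole numbers and columns assigned to piglets by the pig number in the heading. No column was without a sample. All 18440 genes were matched by identifier to RefSeq (Sscrofa11.1), 18240 with the same symbol. The 13 symbols that stand for more than 1 gene, among them LDHB, CRP, GZMA and TF, are uncertain. The score used CPM of the whole column. Other CPM were scaled by TMM.

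The 24 livers were compared with edgeR 4.0.16 in R 4.3.3 (TMM, filterByExpr with a minimum count of 10, robust quasi-likelihood F test), with Benjamini-Hochberg adjustment over the 13287 genes outside the score and a threshold of 0.05. Standard errors were derived from the F statistic. The code was tested on simulated data. The total count per liver was 15036591 to 19340218, and the precision of a value is set by it and by the spread between piglets. Alternatives were DESeq2 size factors, no filter, DESeq2 1.42.0, limma 3.58.1 (voom with quality weights), the labelled group or the erythroid score as covariate, the score over all 43 livers, leaving out each library, and 2 fits added after the data were seen.

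Named genes were the 15 of smallest p in each direction and, in the 20 pathway and 13 marker lists written from general knowledge, members of small p, the leading markers and members that did not pass. A few members are not reported here by name. The livers, lists and genes were chosen with earlier results of these data known.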

Additional observations from a re-analysis of the deposited data

How the results depend on the processing

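The count of higher genes, 1006 in the main comparison, was 339 with the labelled group as a covariate, 321 with the erythroid score, 1719 with the score as a slope over all 43 livers and 34 without the normal-sized untreated livers. The count of lower genes, 435, was 101, 50, 1320 and 1 in those fits, 919 with limma voom and 887 with the 12 lowest of all 46 livers. The slope used more livers, and the fit without normal-sized untreated livers fewer (4 against 10). Why the counts moved was not tested for any of these fits. The remaining counts were within 1.5 times the main ones: 1078 and 408 with DESeq2 size factors, 971 and 302 with no filter, 1243 and 578 with DESeq2, 1269 higher with limma voom and 678 higher with all 46 livers. The share of higher calls was 69.8% in the main comparison, 58.0% with limma voom, 56.6% with the slope, 86.5% with the erythroid score and 43.3% with all 46 livers. All 1441 genes called kept their sign in every planned fit and without the normal-sized untreated livers, and 1372 did with all 46 livers. Leaving out 1 library gave 744 to 1238 higher and 215 to 626 lower genes. The lower count moved by over 1.5 times without the high livers of pigs 34 (258), 30 (225) and 20 (215) and the low liver of pig 33 (276). No paired analysis was possible because the labels give every piglet a number of its own and the sides share none.

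Of the 70 named genes called, 17 were not past the threshold with the labelled group as a covariate, 21 with the erythroid score, 3 with DESeq2 size factors, 5 with no filter, 0 with DESeq2, 1 with limma voom, 4 with the slope, 16 with all 46 livers and 53 without the normal-sized untreated livers. A called gene changed sign in 2 cases, both with all 46 livers: EGR1 (-0.28) and NR1H4 (0.0862). Genes that were not called changed sign as follows, in log2 fold change. With the labelled group CYP2B22 had -0.0293, THBS1 0.0697 and RTP3 -0.27. With the erythroid score GFI1B had 0.0475 and RTP3 -0.0559. With the slope FOS had -0.18, DERL3 0.0281 and CYP2C49 0.0319. Without the normal-sized untreated livers CYP2D25 had -0.18, CYP2B22 -0.32, GFI1B 0.0887, THBS1 0.19, NKG7 0.0144, CD4 0.0091, XCR1 0.22, OIT3 0.0084, PDGFRA 0.12 and RTP3 -0.20. With all 46 livers CYP4V2 had 0.0341, ELOVL5 0.0935, KLF4 -0.17, FOS -2.08, JUN -1.98, ATF6 0.0820, SELP 0.0930, JCHAIN 0.0611, PDGFRA 0.0624, IGF1 0.0304 and CYP2C49 0.26.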

Other observations

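Groups of genes outside the fixed lists were gathered after the values were seen, so their counts describe the result and are no test of it. Proteins that handle new histones stood with the replication genes, since 10 of 11 tested were higher in the high livers and 0 lower. Their median log2 fold change was 0.65, and in 1 of the 11 every high liver lay above every low liver. DNAJC9, a histone H3-H4 chaperone, had 11.7, 17.4 and 30.8 CPM (lowest, median and highest) in the high livers, against 4.75, 8.85 and 12.6 CPM in the low livers (log2 fold change 1.09, standard error, SE, 0.16, adjusted p = 9.8e-05). MMS22L, which works with TONSL on damaged forks, differed by 1.19. Of 19 kinetochore genes 13 were higher and 0 lower, with a median of 0.68, among them ZWINT (1.23) with 3.54, 6.88 and 11.4 CPM in the high livers, against 1.90, 2.84 and 4.65 CPM in the low livers. Cohesin and its loaders had 4 of 12 (33.3%) higher, where 7.57% of all tested genes were higher. With the labelled group as a covariate 6 histone, 8 kinetochore and 3 cohesin genes passed, with the erythroid score 6, 7 and 2, and without the normal-sized untreated livers 2, 0 and 0.

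Of all tested genes 7.57% were higher. Of 25 nuclear pore genes 17 (68%) were higher and 0 lower (median log2 fold change 0.33). Of 29 import and export factors 16 (55.2%) were higher and 0 lower (median 0.32). From these 2 lists, 8 and 9 genes passed with the labelled group as a covariate, 7 and 7 with the erythroid score. Without the normal-sized untreated livers 2 and 1 passed. RANBP1, a regulator of the Ran GTPase cycle, had 45.2, 76.8 and 145 CPM in the high livers, against 31.8, 43.8 and 56.6 CPM in the low livers (log2 fold change 0.96, SE 0.15, adjusted p = 0.00019), and 11 of the 12 high livers were above all low livers. The exportin CSE1L differed by 0.65. All 8 tested subunits of the cytosolic chaperonin, which folds actin and tubulin, were higher (median 0.36), but 0 passed with the labelled group as a covariate, 2 with the erythroid score and 0 without the normal-sized untreated livers. Of 31 proteasome genes 8 (25.8%) were higher (median 0.19), with PSMD14 leading (0.71), and of 24 spliceosome genes 10 (41.7%) were higher (median 0.20). Of these 2 lists, 1 and 2 genes passed with the labelled group as a covariate, 2 and 3 with the erythroid score, and 1 and 0 without the normal-sized untreated livers. Among 38 cytosolic ribosomal protein genes 0 passed edgeR's test in either direction, with a median of 0.07 and 6 at an unadjusted p under 0.05, and DESeq2 called 2 and limma voom 1 of them higher.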
